A study of Mus musculus with 7 samples.

Results

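The promoters of 44 genes of cell division were examined in freshly sorted stem cells of mouse muscle (MuSCs), which express PAX7 and rest under the basal lamina of the muscle fiber until they are needed for repair. The genes are those of DNA replication, the cyclins, the mitotic kinases, the kinetochore and the spindle, and they were taken by name from 21440 protein-coding genes. A promoter was the transcription start site (TSS) ± 1 kb on mm10, and it was said to hold a peak where a peak of the library overlapped it by at least 1 bp. ATAC-seq, in which the Tn5 transposase cuts and tags accessible DNA, had been performed on 5000 cells per library.

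There were 4 libraries from Nedd4L-cKO mice and 3 from WT mice. The Nedd4L-cKO mice were Nedd4L fl/fl and Pax7 cre/+, so that exon 15 of the gene for the E3 ubiquitin ligase Nedd4L, which encodes a piece of the catalytic domain, was removed wherever Pax7 had driven Cre. Cre under Pax7 also acts in the progeny of these cells, which include the nuclei of myofibers. The alleles of the WT mice were not given in the sources used here. The Nedd4L-cKO line had a C57BL/6 background, the mice of the ATAC-seq were males of 5 to 6 weeks, and MuSCs were sorted from hindlimb muscle as ITGA7+/Hoechst+ cells negative for CD31, CD45, CD11b and SCA1. The number of mice per genotype equalled the number of libraries.

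Cell division genes are transcribed in waves, with the replication genes rising at the entry into S phase and the mitotic genes in G2. In resting cells the DREAM complex, which joins an E2F and a pocket protein to the MuvB core, sits at these promoters and keeps them silent. It reaches them through E2F sites or through the cell cycle genes homology region (CHR), and the activator NF-Y binds the CCAAT boxes that lie close by. A promoter can therefore be accessible in a cell in which its gene is not transcribed, and ATAC-seq does not tell a bound repressor from a bound activator.

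The sequences below are the 180 bases before the RefSeq start (GRCm38.p6, the assembly of mm10) of 7 of the genes, read 5′ to 3′ along the gene. Cdk1, Aurka, Birc5 and Mki67 are shown because their RNA was of interest in the study, Cenpf because its peak had the highest fold enrichment, and E2f2 and Ccne1 because theirs had the lowest. Capitals mark a CCAAT box, a CHR, which is TTTGAA or a variant of it that is spelled TTTAAA, or an E2F site (TTTCCCGC, TTTGGCGC or GGCGGGAA) on either strand.
Cdk1, chr10:69352913-69353092, minus strand: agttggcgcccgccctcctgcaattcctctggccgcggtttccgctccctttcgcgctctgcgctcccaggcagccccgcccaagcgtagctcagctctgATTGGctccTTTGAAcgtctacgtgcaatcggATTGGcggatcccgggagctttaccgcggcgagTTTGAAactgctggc
Aurka, chr2:172370571-172370750, minus strand: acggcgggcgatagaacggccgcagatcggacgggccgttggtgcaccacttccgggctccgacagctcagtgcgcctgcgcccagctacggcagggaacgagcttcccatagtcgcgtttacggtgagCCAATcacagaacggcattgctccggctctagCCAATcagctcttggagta
Birc5, chr11:117849057-117849236, plus strand: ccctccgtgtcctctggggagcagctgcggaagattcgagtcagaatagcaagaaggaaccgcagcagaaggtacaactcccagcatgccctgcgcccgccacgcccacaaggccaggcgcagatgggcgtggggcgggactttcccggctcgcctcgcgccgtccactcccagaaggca
Mki67, chr7:135716380-135716559, minus strand: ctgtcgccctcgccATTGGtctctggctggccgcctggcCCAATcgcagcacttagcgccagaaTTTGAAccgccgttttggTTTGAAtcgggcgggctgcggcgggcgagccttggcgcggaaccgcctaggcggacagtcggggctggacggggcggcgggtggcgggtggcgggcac
Cenpf, chr1:189688087-189688266, minus strand: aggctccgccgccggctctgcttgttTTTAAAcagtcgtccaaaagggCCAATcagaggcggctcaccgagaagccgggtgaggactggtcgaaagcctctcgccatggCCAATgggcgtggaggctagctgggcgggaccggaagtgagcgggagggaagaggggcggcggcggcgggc
E2f2, chr4:136172094-136172273, plus strand: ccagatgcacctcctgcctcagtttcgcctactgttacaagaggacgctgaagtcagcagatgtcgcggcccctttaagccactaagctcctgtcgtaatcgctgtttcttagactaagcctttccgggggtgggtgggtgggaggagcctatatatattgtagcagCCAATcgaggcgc
Ccne1, chr7:38107491-38107670, minus strand: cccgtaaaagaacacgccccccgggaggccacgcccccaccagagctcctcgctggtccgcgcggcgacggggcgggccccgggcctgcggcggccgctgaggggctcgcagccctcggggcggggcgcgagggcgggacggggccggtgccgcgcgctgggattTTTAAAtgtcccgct

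The Cdk1 stretch held 2 CHR and 2 CCAAT boxes, and so did the Mki67 stretch. The Aurka stretch held 2 CCAAT boxes, and the Birc5 stretch held none of the motifs in these letters. Of the 44 genes, 36 had a sequence in the RefSeq promoter table, which covers 250 bases before the start and 50 after it. A CHR was found in 23 of the 36 (63.9%), against 25.5% of all 17492 promoters of the table and 18.0% of the 10653 that held a peak in all 7 libraries. A CCAAT box was found in 27 (75%), against 39.2% and 38.7%, and both motifs together in 20 (55.6%), against 10.3% and 7.43%. An E2F site was found in 8 (22.2%), against 4.29% and 6.30%. A TATAAA was found in 0 of the 36, against 13.3% and 6.79%. Both strands were searched, TTTAAA reads the same on either strand, and the spellings of the E2F site can share letters, so a promoter was counted once per motif. The other cell cycle genes, 53 of which had a sequence, held a CHR in 47.2%, a CCAAT box in 60.4%, an E2F site in 20.8% and a TATAAA in 5.66%. These are matches of letters, described without a test.

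The matches differed by role. By the spellings listed above, an E2F site was found in 7 of the 11 genes of licensing and DNA synthesis with a sequence. They were Cdc6, Cdt1, Mcm3, Mcm5, Mcm6, Mcm7 and Rrm1, and outside that group E2f2 alone held a match. Other spellings of the E2F site were not searched, so a gene without a match may still hold a site. A CHR was found in 3 of these 11, in 1 of 3 transcription factor genes, in 4 of 4 cyclin and Cdk1 genes, in 5 of 7 mitotic kinase and checkpoint genes, in 4 of 5 kinetochore genes and in 6 of 6 spindle and exit genes. Plk1, a mitotic kinase, held 3 CHR matches. Top2a, the topoisomerase that untangles sister chromatids, and Ube2c, the ubiquitin-conjugating enzyme of the anaphase-promoting complex, each held 6 CCAAT matches. The genes of this paragraph were named after the matches had been seen. The 36 promoters had a median C plus G share of 58.8% and an observed to expected CpG ratio of 0.909, while the promoters with a peak in all libraries had 61.7% and 0.772.

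By the headers of the lists, MACS2 read 28.4 to 42.4 M tags per library, kept 14.4 to 20.1 M of them and called 69302 to 79158 peaks. WT replicate 3 was the shallowest library and the only one labelled lane 2. The promoter of Nedd4l itself, taken at its outermost start, held a peak in 0 of the 7 libraries. Other starts of the gene were not examined, so this does not show a closed promoter. The deletion removes an exon, and the paper states that the gene is still transcribed. A promoter peak, present or absent, therefore does not check the genotype. Of 10 MuSC marker promoters, 9 held a peak in all libraries, Pax7, Myf5 and Cdh15 included, and the other, Notch3, in 1 library. Of 6 immune marker promoters, Ptprc and Itgam included, 0 held a peak in any library. Kdr and Tek held a peak in all libraries, while 3 other endothelial markers, Pecam1 included, did not in any. Of the 4 fibro-adipogenic markers, Dcn held a peak in 5 libraries and Lum in 1. Of the 3 myofiber markers, Acta1 and Myh4 held a peak in all libraries and Ckm in 5. The part of other cells in the results was not tested. The sort selects MuSCs and holds no marker of quiescence, and the peak lists hold no measure of RNA or of the cell cycle. How quiescent the cells were was thus not measured here. The paper proposes that Nedd4L-cKO MuSCs are less quiescent than those of WT.

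Nearly all cell division promoters were accessible in both genotypes. A peak was called at 44 of 44 promoters in each Nedd4L-cKO library and in WT replicates 1 and 2, and at 43 of 44 (97.7%) in WT replicate 3. In all 7 libraries together, 43 of 44 held a peak, against 61.5% of the 21440 protein-coding promoters. The exception was E2f2, a transcription factor of the E2F family, whose nearest peak in WT replicate 3 lay 2171 bp from the start. RefSeq gave 2 starts for E2f2, and the outermost was used. With a window of 2.5 kb, all 44 promoters held a peak in all libraries. In Nedd4L-cKO, 64.1 ± 0.744% (SD, n = 4) of all promoters held a peak. In WT, 64.3 ± 0.302% (SD, n = 3) did, a difference smaller than the spread within Nedd4L-cKO (p = 0.743 by a two-sided exact permutation test, and 0.533 in lane 1 alone). The share ranged from 63.5% in Nedd4L-cKO replicate 1 to 65.2% in Nedd4L-cKO replicate 4, the deepest library. The libraries can be divided 4 against 3 in 35 ways, so a single way has a share of 0.0286. The two-sided test doubles the smaller tail, so its p could not fall below 0.05 with these libraries.

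Each peak was placed within its own library by its percentile among all its peaks, where 100 is the highest. The pileup is the mean coverage of tags over the peak, and the fold enrichment is that pileup over a background estimated from the same library around the peak. The median over the 44 promoters was at the 88.8th percentile by pileup and the 90.6th by fold enrichment. All protein-coding promoters with a peak in at least 1 library, 14338 in number, had medians of 85.2 and 76.7. Of the cell division promoters, 29 were above that median by pileup and 33 by fold enrichment, and 23 (52.3%) were at or above the 90th percentile by fold enrichment, against 27.5% of all promoters. By pileup 19 (43.2%) were that high, against 36.7%. The difference between the list and all promoters was thus larger by fold enrichment, with 12.9 percentiles, than by pileup, with 2.88, as means over the 7 libraries.

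**Figure D1:**
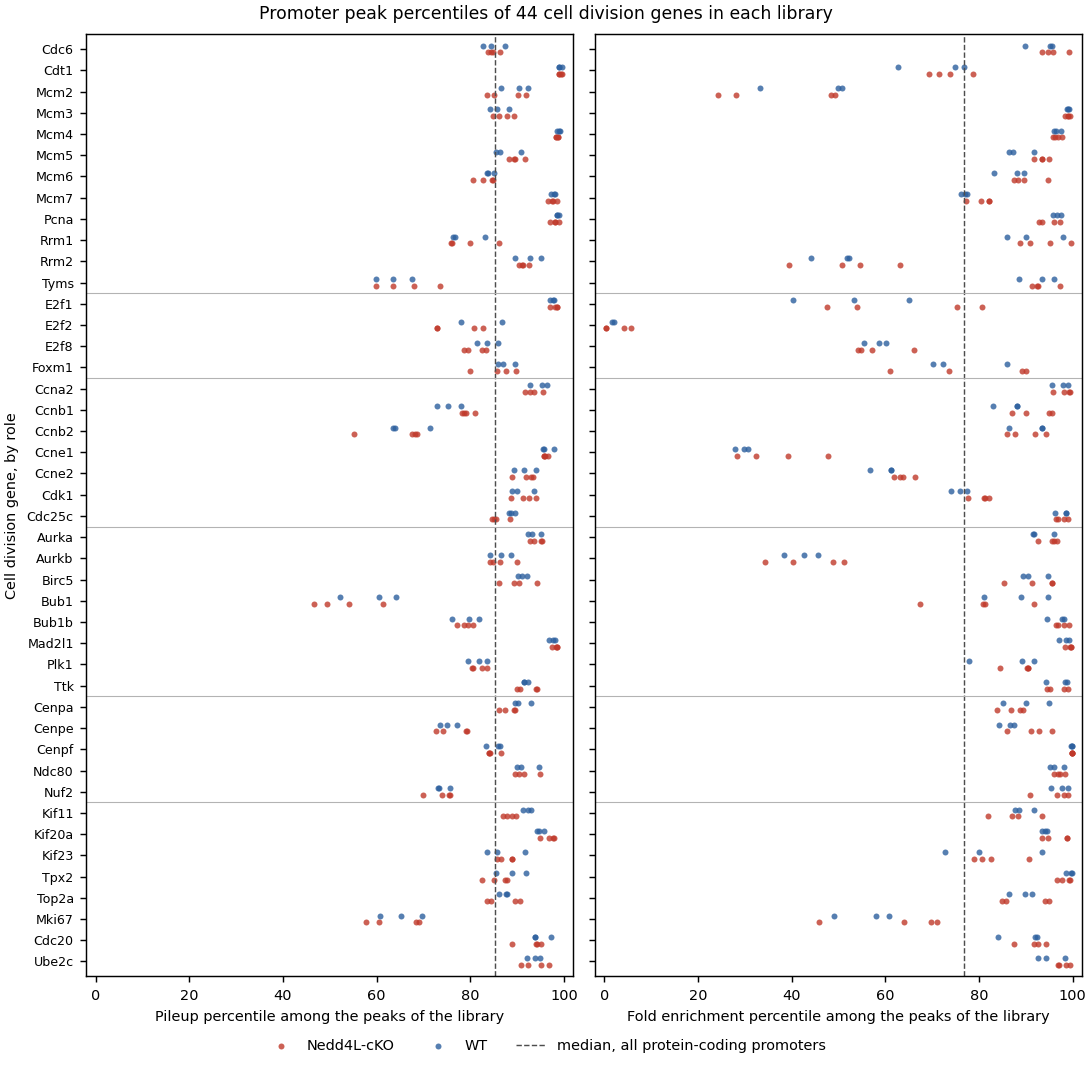
Each point is 1 library, with the percentile of the promoter peak among all peaks of that library on the x axis (0 to 100) and the 44 genes by role on the y axis, Nedd4L-cKO in red and WT in blue. The dashed line is the median of all protein-coding promoters with a peak (85.2 by pileup, 76.7 by fold enrichment), and E2f2, Ccne1 and Aurkb lie lowest by fold enrichment.

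High percentiles were not particular to these genes. The 67 other cell cycle genes listed, which include the DREAM subunits, more replication and mitosis genes and the G1 cyclins, held a peak in all libraries at 63, with medians of 88.4 by pileup and 90.3 by fold enrichment. Proteasome subunit genes, which are expressed in every cell, held one at 30 of 31, with medians of 90.5 and 92.4. Sarcomere genes, which are those of the contractile apparatus, held one at 15 of 25, with medians of 69.4 and 41.7. Of the G1 cyclins, Ccnd1 held no peak within 1 kb in any library, but the nearest lay 1276 to 1409 bp from its start in all 7. Ccnd2 held a peak in 3 libraries, and Ccnd3, with a peak in all, was at the 88.2nd percentile by pileup and the 18.4th by fold enrichment. The kinases Cdk4 and Cdk6 were at the 75.0th and 11.8th percentile by fold enrichment. Kif2c, a kinesin that takes microtubules apart, held no promoter peak in any library, but the nearest peak lay 3312 to 3398 bp from its start. Tk1, the thymidine kinase, held a promoter peak in 5 libraries.

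**Figure D2:**
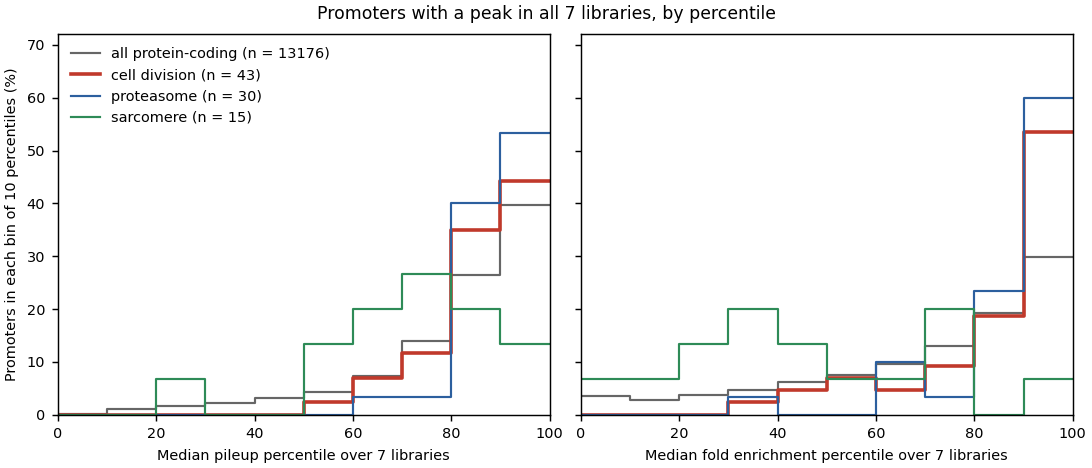
The share of promoters (y axis, %) in each bin of 10 percentiles (x axis, median over the 7 libraries) for promoters with a peak in all libraries, by pileup on the left and by fold enrichment on the right. By fold enrichment, cell division and proteasome promoters gather in the top bin and sarcomere promoters do not.

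The genes of licensing and DNA synthesis held a peak at 12 of 12 promoters, with medians of 89.9 by pileup and 91.4 by fold enrichment. The 3 highest pileups of all 44 genes were in this group. Cdt1, which loads the MCM helicase onto origins, was at the 99.0th percentile, with 98.9, 99.6, 99.0 and 99.4 in the Nedd4L-cKO libraries and 99.5, 99.0 and 99.0 in WT. Mcm4, a helicase subunit, followed at 98.7, and Pcna, the sliding clamp of the polymerases, at 98.5. The Mcm4 start lies 44 bp from that of Prkdc on the other strand, so the peak belongs to both genes. By fold enrichment Cdt1 was lower, at the 73.7th percentile.

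Mcm7 shares its window with Ap4m1, whose start lies 138 bp away on the other strand, and was at 97.6 by pileup and 77.4 by fold enrichment. Mcm2 had the shortest peak of all 44 genes, with a median of 661 bp, and was at 48.3 by fold enrichment. Tyms, the thymidylate synthase, had the second lowest pileup, at the 63.6th percentile, but was at 92.7 by fold enrichment. Cdc6, which recruits the helicase to origins, was at 84.4 by pileup and 95.2 by fold enrichment. The remaining genes of the group, Mcm3, Mcm5, Mcm6 and the ribonucleotide reductase subunits Rrm1 and Rrm2, were between 76.6 and 91.3 by pileup and between 51.8 and 99.1 by fold enrichment.

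The transcription factors were the group with the lowest fold enrichment. E2f1, E2f8 and Foxm1 held a peak in all libraries, and none of the 4 genes was above the median of all promoters by fold enrichment. E2f1, an activator of S phase genes, was at 97.8 by pileup and 53.8 by fold enrichment, and its fold enrichment varied most over the libraries of all the 43 genes compared, by 40.3 percentiles. Foxm1, an activator of the G2 and mitosis genes, starts 83 bp from Rhno1 on the other strand and was at 87.1 and 73.6. E2f8, a repressor of the family, was at 82.5 and 57.2.

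E2f2 lay lowest of all by fold enrichment. Its percentiles were 5.8, 4.2, 0.3 and 0.4 in Nedd4L-cKO and 2.0 and 1.7 in WT replicates 1 and 2, with fold enrichments of 1.93 to 2.65. By pileup the same peaks were at 72.8, 72.9, 80.7 and 82.6 in Nedd4L-cKO and at 86.9 and 78.0 in WT. The peak lay downstream of the start, from 59 to 905 bp by the medians, and covered the start in 3 of 6 libraries. The genotypes overlapped on both measures in these 6 libraries, and without a peak in WT replicate 3 the gene was not among the promoters compared by rank.

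At some promoters fold enrichment was low and pileup high. The pileup divided by the fold enrichment, a measure of the local background, had a median of 7.93 tags over the 44 promoters and 7.64 over all promoters. It was 16.6 at Ccne1, 15.7 at E2f1, 15.3 at E2f2, 15.0 at Cdt1 and 11.8 at Aurkb. At the 3 promoters with the highest fold enrichment it was 4.82 (Cenpf), 5.84 (Tpx2) and 8.72 (Mad2l1), the last above the median. The quotient is computed from the fold enrichment and cannot explain it. Peaks covered 17.1% of the 10 kb around the start of Cdt1 and 18.5% around that of E2f1, in both cases with a median of 1 peak, the promoter's own. The background over 10000 bp includes the peak's own tags, which were not told apart from those of its surroundings. The MuSC markers had medians of 86.5 by pileup and 6.5 by fold enrichment and a local background of 14.6 tags.

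**Figure D3:**
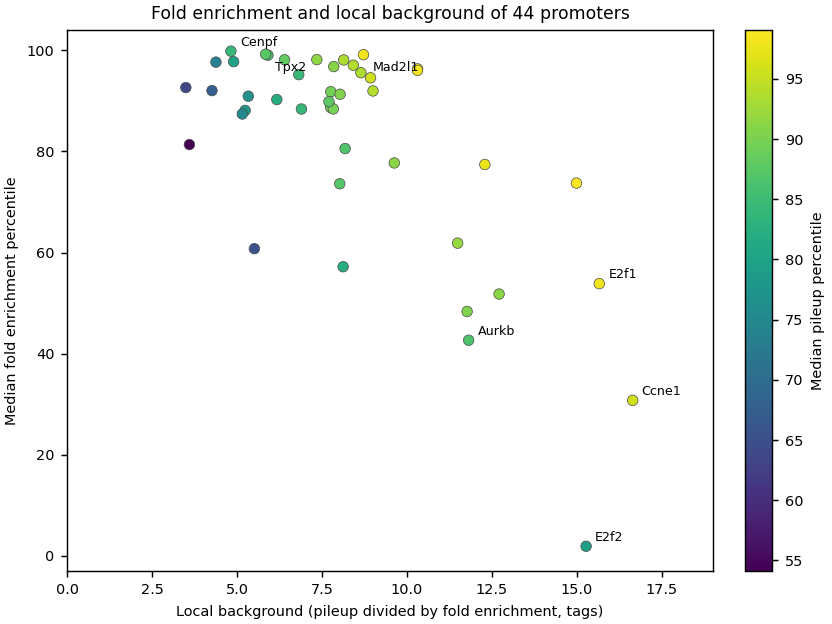
Each point is 1 of the 44 promoters, with the pileup divided by the fold enrichment (tags, median over libraries) on the x axis and the median fold enrichment percentile on the y axis, coloured by the median pileup percentile. The x axis is computed from the fold enrichment, so the fall to the right is built in, and E2f2, Ccne1 and E2f1 show backgrounds of 15.3 to 16.6 tags.

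The cyclins, Cdk1 and its phosphatase Cdc25c held a peak at 7 of 7 promoters, with medians of 91.2 by pileup and 88.1 by fold enrichment. Cdk1, the kinase that drives mitosis, was at 91.2, 88.6, 92.6 and 94.1 by pileup in Nedd4L-cKO and at 93.7, 90.1 and 88.9 in WT. By fold enrichment it was at 81.2, 77.7, 82.1 and 81.3 in Nedd4L-cKO and at 74.0, 77.4 and 75.8 in WT. The pileups of the genotypes overlapped, and the fold enrichments did not, by a gap smaller than the range within either group. Ccnb1, the partner of Cdk1, was at 78.2 by pileup and 88.1 by fold enrichment, and Ccnb2 was at 67.5 and 92.1. Ccne1, the cyclin of S phase entry, combined a pileup at 95.8 with a fold enrichment at 30.7, the second lowest of all 44 genes.

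Some starts of this group were taken from the outer end of the gene span. The peak of Ccna2, the cyclin of S phase and G2, began 374 bp downstream of that start and did not cover it in any library. The peak of Ccne2 ran from about the start to 2027 bp downstream, was the second longest with a median of 2030 bp, and covered the start in 4 of 7 libraries. These 2 genes and E2f2 were the exceptions among the 44, since the peaks of the other 41 (93.2%) covered the start in every library. Of the 14338 promoters with a peak in at least 1 library, 84.8% had the start covered in each library where they held one. Ccna2 was at 93.6 by pileup and 98.1 by fold enrichment, and Ccne2 was at 92.0 and 61.9. Cdc25c was at 88.2 and 98.2.

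**Figure D4:**
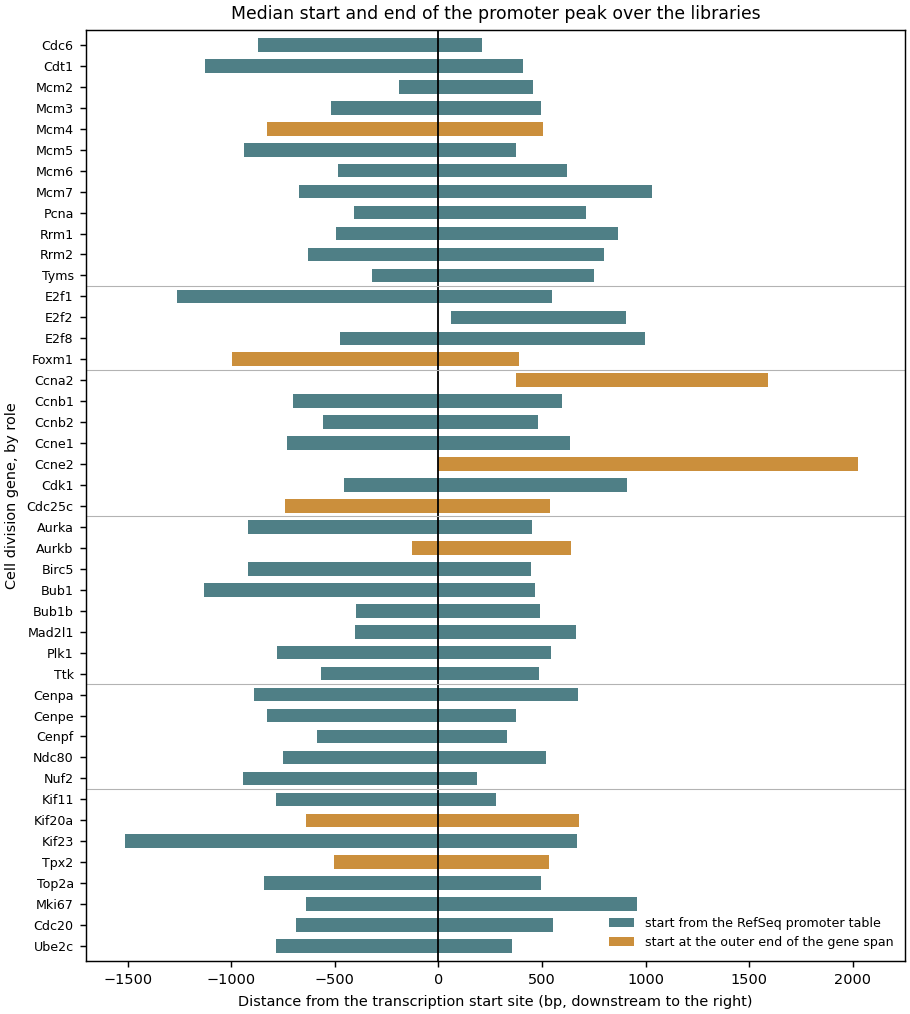
Bars run from the median start to the median end of the promoter peak over the libraries, in bp from the transcription start site, for the 44 genes by role. Starts from the gene span are in ochre, and the bars of E2f2 and Ccna2 lie wholly downstream of the start.

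The mitotic kinases and the genes of the spindle checkpoint held a peak at 8 of 8 promoters, with medians of 88.4 by pileup and 93.5 by fold enrichment. Aurka, the kinase of the centrosome and spindle poles, was at 92.8, 95.3, 93.5 and 95.2 by pileup in Nedd4L-cKO and at 93.1, 92.3 and 95.0 in WT. Birc5, which encodes survivin of the chromosomal passenger complex, was at 86.1, 89.3, 90.5 and 94.2 in Nedd4L-cKO and at 92.2, 91.0 and 90.3 in WT. The genotypes overlapped at both genes. By fold enrichment Aurka was at 95.6, in a peak that also covers the start of Cstf1, 433 bp away on the other strand, and Birc5 was at 91.3. Aurkb, the kinase of the passenger complex, had the third lowest fold enrichment, at 42.6, and the second shortest peak, with 760 bp.

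Bub1, a checkpoint kinase, had the lowest pileup of all 44 genes. Its percentiles were 46.5, 49.4, 54.1 and 61.3 in Nedd4L-cKO and 60.5, 64.1 and 52.1 in WT, and it varied most over the libraries by pileup, by 17.5 percentiles. By fold enrichment it was at 81.4. Mad2l1, the checkpoint protein that holds back anaphase, had the third highest fold enrichment, at 99.2, and was at 98.2 by pileup. The checkpoint kinases Bub1b and Ttk and the mitotic kinase Plk1 were between 79.6 and 91.5 by pileup and between 90.3 and 98.2 by fold enrichment.

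The kinetochore and centromere genes had the highest median fold enrichment of the groups, at 96.8, with a median of 84.2 by pileup, and held a peak at 5 of 5 promoters. Cenpf, a kinetochore protein of G2 and mitosis, had the highest fold enrichment of all 44 genes, at 99.9, 99.9, 99.8 and 99.9 in Nedd4L-cKO and 99.7, 99.8 and 99.9 in WT, with fold enrichments of 7.25 to 8.30. It also varied least over the libraries on this measure, by 0.213 percentiles. Cenpa, the histone H3 variant of the centromere, was at 89.5 by pileup and 88.7 by fold enrichment, and Cenpe, a kinesin of the kinetochore, was at 75.1 and 87.4. Ndc80 and Nuf2, which bind each other and the microtubule, were at 90.9 and 73.9 by pileup and at 96.8 and 97.7 by fold enrichment.

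The genes of the spindle, chromosome structure and mitotic exit held a peak at 8 of 8 promoters, with medians of 88.8 by pileup and 90.9 by fold enrichment. Mki67, which encodes the proliferation marker Ki67, had the third lowest pileup, at 68.4, 57.7, 60.5 and 69.0 in Nedd4L-cKO and at 69.8, 65.1 and 60.6 in WT. Its fold enrichment was at 69.7, 64.0, 45.8 and 71.1 in Nedd4L-cKO and at 48.9, 60.8 and 58.0 in WT. The genotypes overlapped on both measures. Its promoter was below the median of all promoters with a peak by both measures, and of the other 43 genes E2f2 and E2f8 were too.

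Tpx2, which targets Aurora A to the spindle, had the second highest fold enrichment, at 99.2. Kif23, a kinesin of the central spindle, had the longest peak, with a median of 2169 bp. By the medians it ran from 1514 bp before the start to 667 bp after it. In Nedd4L-cKO replicates 1 and 3 and in WT replicate 3 it was shorter (1233, 1238 and 963 bp). In these libraries 2 peaks were called in the 10 kb around the start. Kif20a, another kinesin of the central spindle, has the start of Brd8 within its window, 239 bp downstream on the other strand, and was at 95.7 and 94.6. Cdc20, the activator of the anaphase-promoting complex, was at 94.0 and 92.0, and Kif11, the motor that separates the spindle poles, was at 89.9 and 88.4. Top2a and Ube2c were at 87.7 and 93.8 by pileup and at 89.9 and 97.1 by fold enrichment.

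The question of the comparison of genotypes was whether these promoters are more or less accessible without Nedd4L. By pileup the median percentile of the 44 promoters was 88.3 ± 0.856 (SD, n = 4) in Nedd4L-cKO. In WT it was 89.4 ± 0.633 (SD, n = 3), so that Nedd4L-cKO minus WT was -1.12, described without a test. In size this is larger than the SD in either genotype, but the libraries overlapped. Nedd4L-cKO replicate 3 was at 89.2 and WT replicate 3 at 88.9. The median of all promoters by pileup differed by -0.0587. By fold enrichment the values were 91.6 ± 1.60 (SD, n = 4) in Nedd4L-cKO, then 90.0 ± 2.25 (SD, n = 3) in WT. Here Nedd4L-cKO minus WT was 1.61, which is smaller than the SD in WT. The median of all promoters by fold enrichment differed by 1.24 in the same direction. In lane 1 alone, which leaves out WT replicate 3, the list differed by -1.37 by pileup and by 2.84 by fold enrichment, and without WT replicate 1 the latter was 0.637. Lane 2 held 1 library, so it gave no value of its own. Of all 21440 promoters, 2 held a peak in every Nedd4L-cKO and no WT library and 5 the reverse, and 0 of either were cell division genes.

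Each promoter was then tested with limma on its rank within the library, turned into normal scores, among the 13176 promoters with a peak in all libraries. At an adjusted p under 0.05 no promoter differed by pileup (0%) or by fold enrichment (0%), and the 43 cell division promoters tested had a lowest adjusted p of 1.00 by pileup and 0.999 by fold enrichment. At an unadjusted p under 0.05, 2 of the 43 were found by pileup, where 3.11% of all promoters were, and 1 by fold enrichment, where 4.15% of all were. Among the 63 other cell cycle genes tested, 5 were found by pileup and 3 by fold enrichment. The median difference, Nedd4L-cKO minus WT, over the 43 was -0.01 by pileup and 0.07 by fold enrichment in units of 1 SD of the ranks, and over all promoters 0.00 and 0.01. Without regard to the test, 19 of the 43 were higher in Nedd4L-cKO by pileup, where 50.5% of all promoters were, and 28 by fold enrichment, where 53.0% of all were.

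The pair found by pileup was Kif11 and Kif20a. Kif11 was at 89.0, 89.9, 87.8 and 86.9 in Nedd4L-cKO and at 92.9, 91.3 and 92.3 in WT. The rank in Nedd4L-cKO minus that in WT was -0.34 normal-score units (SE 0.106, limma, unadjusted p = 0.00624, adjusted p = 1.00). Kif20a was at 94.9, 97.7, 98.0 and 96.9 in Nedd4L-cKO and at 95.7, 94.2 and 94.6 in WT, which makes 0.35 units (SE 0.134, limma, unadjusted p = 0.0214, adjusted p = 1.00). The groups did not overlap at Kif11 and did at Kif20a. The next in each direction were Cenpa, with -0.23 (SE 0.118), and Ccnb1, with 0.18 (SE 0.106).

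By fold enrichment the promoter found was Mcm5. It was at 95.0, 93.4, 91.8 and 93.6 in Nedd4L-cKO and at 91.6, 86.5 and 87.3 in WT, which makes 0.35 units (SE 0.132, limma, unadjusted p = 0.0295, adjusted p = 0.999). Mad2l1 followed with 0.45 (SE 0.212). In the other direction, Tpx2 differed by -0.47 (SE 0.291) and Bub1 by -0.41 (SE 0.274). None of these passed the adjustment.

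For the genes whose RNA was of interest in the study, the intervals of the difference held 0 on both measures. By pileup the 95% interval of Cdk1 ran from -0.25 to 0.38, that of Aurka from -0.17 to 0.33, that of Birc5 from -0.38 to 0.22 and that of Mki67 from -0.27 to 0.23 normal-score units. By fold enrichment they ran from -0.11 to 0.38 for Cdk1, from -0.17 to 0.57 for Aurka, from -0.44 to 0.51 for Birc5 and from -0.24 to 0.52 for Mki67. Over the 43 promoters the SE had a median of 0.119 by pileup and 0.182 by fold enrichment, and the intervals of all 43 by pileup and of 39 by fold enrichment lay within 1 unit of 0. Differences within these intervals were not excluded with 4 against 3 libraries. Larger ones can also miss the adjusted threshold, and a p that misses the threshold does not show equal accessibility.

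**Figure D5:**
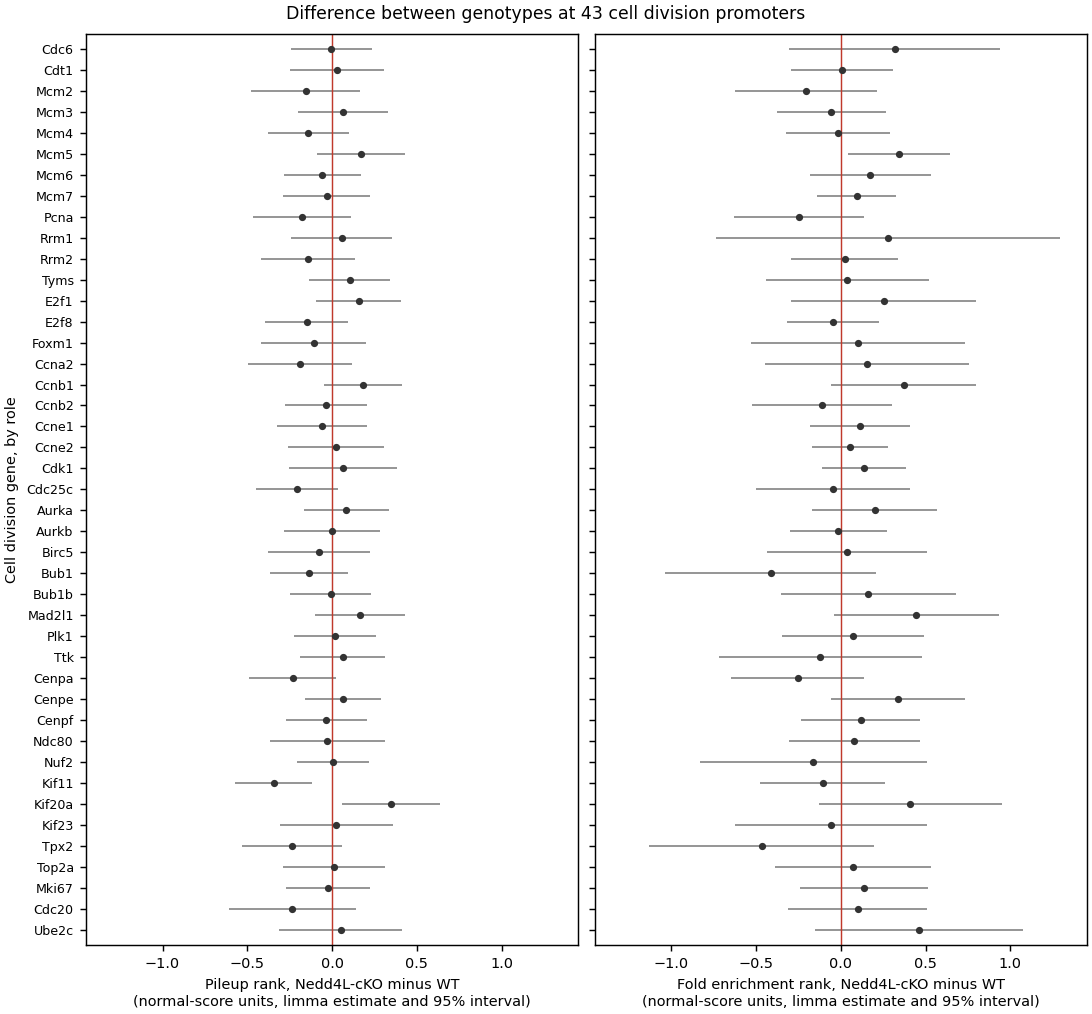
Points are the limma estimates of Nedd4L-cKO minus WT in the rank of the promoter peak (x axis, normal-score units) with 95% intervals, for the 43 cell division genes with a peak in all libraries (y axis). The intervals of Kif11 and Kif20a by pileup and of Mcm5 by fold enrichment do not hold 0, and no adjusted p was below 0.05.

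A percentile that was higher in every library of one genotype than in every library of the other was found at few of the 43 promoters. By pileup Ccnb1 was higher in Nedd4L-cKO, where 1.7% of all 13176 promoters were, and Cenpa and Kif11 were lower, where 1.87% of all were. By fold enrichment Mcm5, Ccne2 and Cdk1 were higher, where 4.4% of all promoters were, and 0 were lower, where 1.37% of all were. Counts of 0 to 3 among 43 promoters are too small to be set against these shares. Over the 7 libraries the percentile of a cell division promoter ranged by a median of 5.81 by pileup and 9.66 by fold enrichment, and that of any promoter by 6.05 and 11.9.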

How the data were processed

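ATAC-seq peak lists of 7 libraries of freshly sorted MuSCs, 4 Nedd4L-cKO and 3 WT by the genotype in their labels, were used. Per the study's methods and processing notes, the authors trimmed reads with Trimmomatic 0.39, aligned them to mm10 with BWA-MEM 0.7.17, dropped low mapping qualities with SAMtools and removed duplicates with Picard 2.26.3. Per the file headers, MACS2 2.2.7.1 then called broad peaks for each library alone, without a control, on single tags of 151 bp shifted by -100 bp and extended to 200 bp, with 1 tag per position, a q-value cutoff of 0.1 and a background over 10000 bp. The deposited pileup is a signal, the mean coverage over the peak, and is not scaled to depth. The fold enrichment deposited for a peak is the ratio of this coverage to the local background. The deposited q-value is given as -log10.

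Percentiles were computed within each library over all peaks on the autosomes, X and Y. Where several peaks overlapped a window, the highest value was taken. The TSS was the outermost start of the RefSeq promoter table for 17492 genes (36 of the 44) and the outer end of the RefSeq span on GRCm38.p6, with the strand of GENCODE, for 3948 (8 of the 44). The highest peak end on chromosome 1 was 195371800, and GRCm39 coordinates were not used. limma 3.58.1 (R 4.3.3, lmFit and eBayes, two-sided, Benjamini-Hochberg over all promoters tested) was run on normal scores of ranks, all 7 libraries in each fit with no covariate. It was also run on simulated data with equal noise at each promoter. The simulated shifts were larger than any difference estimated for a cell division promoter. That run therefore does not show whether differences of the size seen here can be found. The study's methods gave no test for these data. Python 3.11.15 with scipy 1.17.1 was used. Peak lists hold no counts, so no counting interval was given, and depth is the number of tags in the headers.

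The genes, the lists and the motifs were chosen with earlier results of these data known, so list medians and counts are descriptions. Genes were named by a rule: Cdk1, Aurka, Birc5 and Mki67; any gene lacking a peak in a library; the 3 highest and 3 lowest medians by each measure; the 2 lowest limma p in each direction; the 2 longest and 2 shortest peaks; genes whose window holds another start; and the first 1 or 2 by alphabet of each role. Others are given by group or named after their values were seen. Alternatives were other windows, overlaps, q-values, peak numbers, percentile references, rank options, a replicate block, a depth covariate, lane 1 alone and leaving out each library. A TSS at the span end for every gene was added after seeing the data.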

Additional observations from a re-analysis of the deposited data

Results flagged for a closer look

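The 4 Nedd4L-cKO libraries were checked for a library far from the others in 93 measures, the 2 percentiles of each promoter and 5 values per library, and 4 were found. Chance gives about 1 in 20. The measure is the gap to the nearest library over the whole range, set against Dixon's critical value at 95%. The pileup of Ccnb2, a B-type cyclin, was at the 55.2nd percentile in Nedd4L-cKO replicate 1 and between 67.5 and 68.6 in the others, a ratio of 0.920. The fold enrichment of Mad2l1 was at 98.4 in Nedd4L-cKO replicate 4 and between 99.5 and 99.7 in the others, a ratio of 0.900. The fold enrichment of Plk1 was at 84.5 in Nedd4L-cKO replicate 4 and between 90.3 and 90.4 in the others, a ratio of 0.976. The pileup of Cenpf was at 86.5 in Nedd4L-cKO replicate 1 and between 83.9 and 84.2 in the others, a ratio of 0.878. The cause of these was not tested. The group of 3 WT libraries was too small for this check.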

How the results depend on the processing

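Peaks in all libraries were held by 43 or 44 of the cell division promoters under all 15 alternatives. No cell division promoter passed an adjusted p of 0.05 under any of the 21 alternatives for each measure, with a lowest adjusted p of 0.966 by pileup and 0.753 by fold enrichment, and the sign of the 8 differences named by p held wherever they were fitted. Over all promoters, pileup gave 1 call without Nedd4L-cKO replicate 1 (Smarca2; 0 to 1 over the libraries left out) and 2 (Gm5111 and Mecom) where a peak in at least 1 library was enough. Fold enrichment gave 0 in each alternative, with 450 to 736 at an unadjusted p under 0.05.

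The difference in the share of all promoters, -0.154 percentage points, was 0.0435 without Nedd4L-cKO replicate 1 and ranged from -0.505 to 0.0435 over the libraries left out. With a -log10 q of at least 5, the pileup difference between genotypes was -3.26, and the list minus all promoters was 1.49 by pileup and 18.6 by fold enrichment. With percentiles among promoters these were -3.50, 8.12 and 23.7. The other alternatives moved these medians by less than the spread between libraries. The cause of these moves was not tested.

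Same-numbered libraries did not deviate together (r of -0.21, 0.05 and -0.14 by pileup and -0.12, 0.01 and -0.06 by fold enrichment), so the numbers were not taken as pairs. With the replicate block the share of all promoters differed by -0.505 (exact permutation test by sign flips, p = 0.50). That test used replicates 1 to 3 of each genotype and left out Nedd4L-cKO replicate 4. With so few sign flips its p could not fall below 0.05. With the block, limma gave 0 calls by either measure.

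Depth limits the results in that a missing peak does not show closed chromatin. The background of the fold enrichment was not separated into the peak's own tags and those around it.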
